A study of Homo sapiens with 12 samples.

Results

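Aminoacyl-tRNA synthetases are the enzymes that join each amino acid to its tRNA, and the mRNAs of 36 of them were followed in HEK293T cells. The members were chosen by gene name. Names that end in 2 were taken as mitochondrial enzymes (16 genes) and the others as cytosolic enzymes (20 genes). All 36 were found among the 58735 genes of the count table, and all 36 were among the 17729 genes that passed the filter on low counts.

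Polyadenylated RNA of HEK293T, a human embryonic kidney line labelled as wild type, was sequenced in 12 libraries, 3 for each of 4 groups. Cells of the DMSO group had the vehicle. Cells of the CEP group were exposed for 1 h to 25 µM of a clickable electrophilic purine, AHL-Pu-1, which binds cysteines covalently and carries an alkyne handle. Cells of the 4SU group were given 100 µM 4-thiouridine, a photoreactive uridine analog that cells incorporate into new RNA, over 16 h, and the CEP+4SU group had both compounds. One treatment text stands on all 12 labels and includes UV crosslinking on ice, and whether the DMSO and CEP cells were irradiated is not said for each group. That text writes the CEP concentration in mM where the series' design writes µM. A single cell line was used. The study calls its replicates biologically independent and says of its experiments in general that they were repeated on different days, but no source used here ties a library to a culture or day, so p-values measure the spread between these libraries. The 3 comparisons with DMSO use the same 3 control libraries.

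Each synthetase recognizes one amino acid and the matching tRNAs, spends ATP on activating the amino acid and transfers it to the end of the tRNA, and several proofread the product. Mammalian cells keep separate enzymes for most amino acids in the cytosol and in mitochondria, all encoded in the nucleus, while GARS and KARS (glycine and lysine) each encode both forms in a single gene and are counted here as cytosolic. Several cytosolic enzymes are held together in the multi-synthetase complex, and many cytosolic synthetase genes are induced by the transcription factor ATF4 when amino acids run short. The multi-synthetase complex is represented by 8 members, DARS, EPRS, IARS, KARS, LARS, MARS, QARS and RARS.

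ATF4 paired with a C/EBP protein reads a short composite element, and its letters were looked for in the promoters, since they are a feature that the choice by name did not use. RefSeq promoter windows on GRCh38.p14, from 250 bases before to 50 bases after the gene start, were matched for 16 of the 20 cytosolic and 14 of the 16 mitochondrial members; DARS, LARS, VARS, YARS, AARS2 and VARS2 had none. The motif TGATGNAAN, read on both strands, was in 6 of the 16 cytosolic windows (37.5%) and in 1 of the 14 mitochondrial windows (7.14%), against 3.61% of all 35116 windows. A match is a run of letters and not evidence of binding. The stretches around the 7 matches are shown on the strand of each gene, with the motif or its reverse complement in capitals.
AARS (chr16:70289676-70289704, minus strand): ttttctcgcaGTTGCATCAgccaagttag
CARS (chr11:3057408-3057436, minus strand): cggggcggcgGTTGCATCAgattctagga
IARS (chr9:92293693-92293721, minus strand): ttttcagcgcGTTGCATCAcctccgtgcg
MARS (chr12:57488053-57488081, plus strand): gccggttccgGTTGCATCAgcgagggatt
NARS (chr18:57621804-57621832, minus strand): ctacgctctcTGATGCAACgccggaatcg
TARS (chr5:33440956-33440984, plus strand): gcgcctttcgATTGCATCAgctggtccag
YARS2 (chr12:32756076-32756104, minus strand): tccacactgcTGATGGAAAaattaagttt
In 5 of the 7 genes the match began within 14 bases of the RefSeq gene start (CARS, IARS, MARS, NARS and TARS), whereas in AARS and YARS2 it began 188 and 197 bases before it. The 250 bases before the start of IARS, the gene for the isoleucine enzyme and the one member whose mRNA passed the test below, are shown in full with the same capitals (chr9:92293698-92293947, minus strand).
IARS: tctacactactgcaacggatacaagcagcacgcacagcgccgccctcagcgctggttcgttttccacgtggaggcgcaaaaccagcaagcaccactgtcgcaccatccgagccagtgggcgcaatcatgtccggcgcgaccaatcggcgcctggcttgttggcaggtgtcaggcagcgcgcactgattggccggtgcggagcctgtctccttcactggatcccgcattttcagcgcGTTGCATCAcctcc

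Library totals ran from 16569114 to 24644734 counts, and the synthetase genes took 0.610% to 0.664% of them. Markers of HEK293T were present, with 8 of 9 at a mean of 1 FPKM or more over the 12 libraries. Their summed level was 148 to 161 FPKM, and TYR (melanocytes) and CD3E (T cells) were at 0 in every library. FPKM is the fragment count scaled to gene length and to library size. CEP replicate 2 and CEP+4SU replicate 2 stood apart, with 22230 and 22627 genes detected against 24376 to 25869 in the other 10 libraries. The same 2 libraries had the steepest falling trends of counts on the GC content of genes, -0.178 and -0.233 on the log2 scale per 10 percentage points of GC, against -0.121 to 0.127 elsewhere. Values without them are therefore given beside the comparisons that include them. In bulk RNA a smaller number of cells and less RNA per cell cannot be told apart.

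In DMSO the cytosolic synthetases stood at higher mRNA levels than the mitochondrial ones. The median over the 20 cytosolic genes was 49.5 FPKM and that over the 16 mitochondrial genes was 13.9 FPKM, 3.56 times lower, against 3.72 FPKM over all genes tested. Both classes spread widely, from 6.11 to 98.9 FPKM in the cytosol and from 1.04 to 93.9 FPKM in mitochondria. The sum over the cytosolic genes exceeded that over the mitochondrial genes by 3.28 to 3.69 times in each of the 12 libraries, treated or not.

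**Figure D1:**
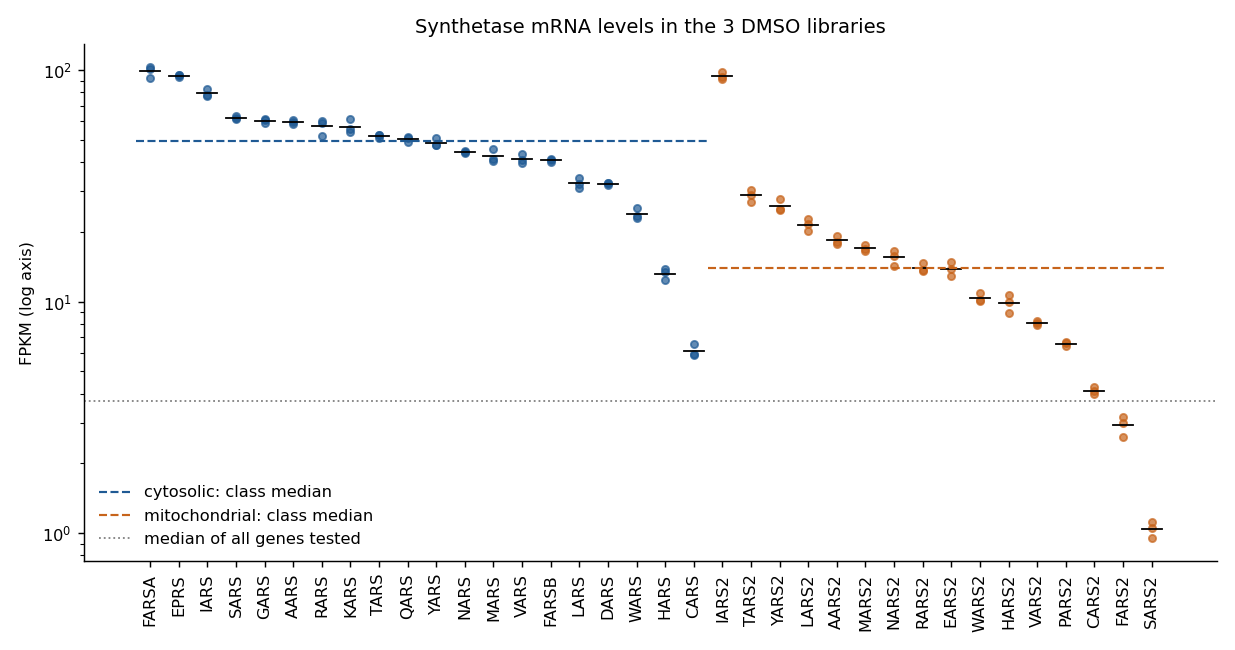
FPKM on a log axis for the 20 cytosolic (blue) and 16 mitochondrial (orange) synthetase genes in the 3 DMSO libraries, with points for libraries, black lines for gene means, dashed lines for class medians (49.5 and 13.9 FPKM) and a dotted line for the median of all genes tested (3.72 FPKM). IARS2 at 93.9 FPKM lies with the highest cytosolic genes, and CARS at 6.11 FPKM lies among the lowest mitochondrial ones.

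FARSA, the catalytic subunit of the cytosolic phenylalanine enzyme, had the highest level at 98.9 ± 5.35 FPKM (SD, n = 3). Its 3 DMSO libraries gave 103, 92.8 and 101 FPKM. EPRS, the fused enzyme for glutamate and proline, followed with 93.3, 95.2 and 95.1 FPKM. IARS2, the mitochondrial isoleucine enzyme, gave 97.7, 91.2 and 93.0 FPKM. The ranges of these 3 genes overlapped, so their order is within the spread of the libraries. TARS2, the mitochondrial threonine enzyme, was next in its class with 30.4, 27.0 and 28.8 FPKM, so IARS2 stood more than 3 times above every other mitochondrial member.

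At the low end, the cytosolic histidine enzyme HARS had 13.8, 12.4 and 13.4 FPKM and the cysteine enzyme CARS 5.87, 6.53 and 5.94 FPKM. FARS2, the mitochondrial phenylalanine enzyme, had 2.99, 2.59 and 3.16 FPKM. SARS2, the mitochondrial serine enzyme, had 1.06, 0.95 and 1.12 FPKM and was the lowest member. None of these 4 ranges overlapped another. SARS2 shares 46.2% of its exon bases with the annotated gene AC011455.2 on the same strand, so reads there may have been assigned to neither gene or to both, and its level is uncertain. VARS2 shares 22% with GTF2H4 in the same way, and HARS2 shares 11.7% with HARS on the opposite strand. Whether the counting used strand is not stated.

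Of the 17 pairs of a cytosolic gene with its mitochondrial counterpart, 16 had the cytosolic mRNA higher in DMSO. SARS was 60.1 ± 4.60 times SARS2, and FARSA was 34.1 ± 1.86 times FARS2 (SD, n = 3). IARS to IARS2 was the exception, at 0.845 ± 0.00475 in DMSO and 0.709 to 0.961 over all 12 libraries. The smallest ratios above 1 were those of HARS to HARS2 (1.34 ± 0.0739), CARS to CARS2 (1.48 ± 0.105) and LARS to LARS2 (1.52 ± 0.166), and each stayed above 1 in every library. EPRS enters with EARS2 and with PARS2, and FARS2, which works as a single chain, enters with each subunit of the cytosolic phenylalanine enzyme.

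The question for each compound was whether it changed the cells' RNA. Across all comparisons the synthetase mRNAs moved little. Log2 fold changes of the 36 members lay between -0.35 and 0.24 for CEP, -0.25 and 0.19 for 4SU and -0.37 and 0.27 for CEP+4SU, each against DMSO, with a median standard error of 0.080 in each. The greatest fall and rise of any member were thus 22.4% and 20.8%, those of VARS and DARS in CEP+4SU. With edgeR's quasi-likelihood test over 17729 genes and a limit of 0.05 on the Benjamini-Hochberg adjusted p, 0 of 36 members passed for CEP, 0 for 4SU and 0 for CEP+4SU, where 0.0564%, 0.00564% and 1.64% of all genes passed. DESeq2 called 1, 0 and 4 members in the same comparisons, where it called 1.83%, 0.363% and 9.96% of the genes it gave an adjusted p, and limma on log2(FPKM + 1) called 0 in each, where it called 0.00564%, 0% and 0.118% of all genes. Without CEP replicate 1, edgeR called 2 members for CEP and 2 for CEP+4SU, against 6.61% and 3.2% of all genes. For CEP+4SU it also called 2 without CEP replicate 2 and 2 without CEP+4SU replicate 1, against 3.52% and 4.42%.

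With CEP alone, 6 cytosolic members were higher and 0 lower at an unadjusted p under 0.05, and 0 mitochondrial members were higher and 2 lower. Over all genes 9.79% were higher and 8.77% lower by that measure. Of the members 6 of 36 were higher, all among the 20 cytosolic genes, and 2 of 36 lower, both among the 16 mitochondrial genes. Whether the members or either class depart from the background was not tested. The cytosolic median was 0.043 and the mitochondrial median -0.057 on the log2 scale, with 13 of 20 and 3 of 16 genes above 0, and the median of all genes was -0.0047. The 8 members of the multi-synthetase complex had a median of 0.15, with 7 of 8 above 0, and the 12 other cytosolic members a median of -0.021. Leaving out the 2 libraries that stand apart gave 0.10 and 0.0088 for these 2 sets and 0.062 and -0.061 for the classes.

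MARS2, the mitochondrial methionine enzyme, showed the clearest difference with CEP. Its normalized CPM, counts scaled to library size without regard to gene length, were 53.3, 51.2 and 50.7 in DMSO, 44.8, 35.3 and 41.7 in CEP, 49.9, 51.3 and 46.7 in 4SU and 40.5, 38.7 and 43.7 in CEP+4SU. Every one of the 6 libraries with CEP was below every one of the 6 without it. AARS and NARS also separated fully by CEP, with differences in mean CPM of -4.78% and 11.2%. How many of all genes separate in this way, or between a treated group and DMSO as in the paragraphs below, was not determined. The log2 fold change of MARS2 was -0.35 (SE 0.096, adjusted p = 0.173) for CEP and -0.34 (SE 0.096, adjusted p = 0.0716) for CEP+4SU against DMSO. Averaged over 4SU, CEP gave -0.31 (SE 0.068, adjusted p = 0.0545), a level 19.2% lower that missed the threshold. In DESeq2 this value was -0.31 with an adjusted p of 0.00298, and the threshold was passed in 8 of 12 other settings (adjusted p from 0.00298 to 0.103). Without the 2 libraries that stand apart it was -0.25 (adjusted p = 0.0950), while without CEP replicate 1 or CEP+4SU replicate 1 the adjusted p was 0.0122 or 0.0315. MARS2 lies at chr2:197705369-197708387 on GRCh38 and is annotated with 1 exon, unlike every other member.

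LARS, the leucine enzyme, had 254, 279 and 265 CPM in DMSO and 297, 338 and 308 CPM in CEP. The groups did not overlap, and CEP replicate 2 was the highest. The log2 fold change was 0.24 (SE 0.079, adjusted p = 0.181). IARS had 614, 578 and 586 CPM in DMSO and 641, 754 and 649 CPM in CEP, again without overlap and with CEP replicate 2 on top. Its log2 fold change was 0.20 (SE 0.073, adjusted p = 0.192). FARSB, the second subunit of the phenylalanine enzyme, had 140, 138 and 137 CPM in DMSO and 155, 158 and 162 CPM in CEP. All CEP libraries were higher, with a log2 fold change of 0.20 (SE 0.076, adjusted p = 0.202). GARS, EPRS and NARS, for glycine, for glutamate and proline and for asparagine, had values of 0.18, 0.17 and 0.15 (adjusted p of 0.203, 0.235 and 0.267), and of 0.13, 0.11 and 0.11 without the 2 libraries that stand apart.

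Among mitochondrial members, VARS2 (valine) had 68.5, 67.5 and 70.7 CPM in DMSO and 60.5, 58.0 and 55.6 CPM in CEP. The CEP libraries were all lower, at a log2 fold change of -0.25 (SE 0.089, adjusted p = 0.191). TARS2 had 125, 111 and 119 CPM in DMSO and 110, 102 and 109 CPM in CEP. Its groups lay close together, at -0.14 on the log2 scale.

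Members with low GC content mostly had positive values for CEP, and members with high GC content mostly had negative values. Over the 36 genes Pearson's r of GC content with the log2 fold change was -0.80, given as a description across genes that share the same 6 libraries. The 12 members under 45% GC, which include LARS, FARSB, EPRS, IARS and NARS, had a median of 0.14 with 11 of 12 above 0. The 7 members at 55% GC or more, which include VARS2, FARSA and VARS, had a median of -0.21 with 7 of 7 below 0 (these 2 limits were chosen after the values were seen). When each library's trend of log2 counts on GC content was removed, r was 0.12 and these medians were 0.0018 and 0.033. The 6 cytosolic members at an unadjusted p under 0.05 became 1, and LARS, IARS, FARSB and VARS2 had values of 0.083, 0.074, 0.043 and -0.058. Without the 2 libraries that stand apart, 2 cytosolic members were higher and 1 lower, and LARS, IARS, FARSB and VARS2 had values of 0.19, 0.12, 0.20 and -0.25. Counts at an unadjusted p in these 2 fits, here and below, stand without the share of all genes. They are therefore not set against a background. MARS2, at 48.4% GC, kept a value of -0.38 (adjusted p = 0.130) with the GC trend removed. The cytosolic genes had a median GC content of 48.6%, the mitochondrial ones 51.8% and all genes 49.3%, and the class medians with the trend removed were 0.027 and -0.028.

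With 4SU alone, 0 members were higher at an unadjusted p under 0.05 and 3 were lower, all cytosolic, where 2.78% of all genes were higher and 3.72% lower. The cytosolic median was -0.029 with 16 of 20 genes below 0, and the mitochondrial median was -0.014 with 10 of 16 below 0. Both turned positive when libraries were scaled by size alone, at 0.026 and 0.042, where the median of all genes was 0.048 and not -0.0073. The 3 genes were IARS, YARS and VARS.

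IARS was lower in every library that had 4SU. The 4SU libraries had 495, 522 and 484 CPM and the CEP+4SU libraries 499, 542 and 537 CPM, against 614, 578 and 586 CPM in DMSO. All 6 libraries with 4SU (484 to 542 CPM) were below all 6 without it (578 to 754 CPM). The log2 fold change was -0.24 (SE 0.073, adjusted p = 0.592) for 4SU and -0.17 (SE 0.073, adjusted p = 0.183) for CEP+4SU against DMSO. IARS lies at chr9:92210207-92293756 on the minus strand.

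YARS, the tyrosine enzyme, had 420, 391 and 396 CPM in DMSO, 352, 341 and 358 CPM in 4SU, 392, 371 and 398 CPM in CEP and 355, 326 and 340 CPM in CEP+4SU. Again the 6 libraries with 4SU (326 to 358 CPM) were below the 6 without it (371 to 420 CPM). SARS and WARS separated fully by 4SU too, with differences in mean CPM of -6.50% and -9.17%. The number of all genes that separate by 4SU was not determined either. For 4SU against DMSO the log2 fold change of YARS was -0.20 (SE 0.066, adjusted p = 0.669). VARS, the cytosolic valine enzyme, had 266, 242 and 252 CPM in DMSO and 230, 199 and 209 CPM in 4SU. These groups did not overlap, with a value of -0.25 (SE 0.11, adjusted p = 0.744).

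The 3 mitochondrial members with the smallest p for 4SU did not reach an unadjusted p of 0.05. PARS2 (proline) had 15.6, 15.2 and 16.0 CPM in DMSO and 17.6, 17.7 and 18.0 CPM in 4SU, a log2 fold change of 0.19. HARS2 (histidine) had 37.4, 33.6 and 40.3 CPM in DMSO and 38.2, 40.4 and 43.9 CPM in 4SU, a value of 0.14. CARS2 (cysteine) had 42.1, 43.1 and 45.4 CPM in DMSO and 38.2, 40.2 and 42.9 CPM in 4SU, a value of -0.11. The PARS2 groups were apart, while those of HARS2 and CARS2 overlapped.

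**Figure D2:**
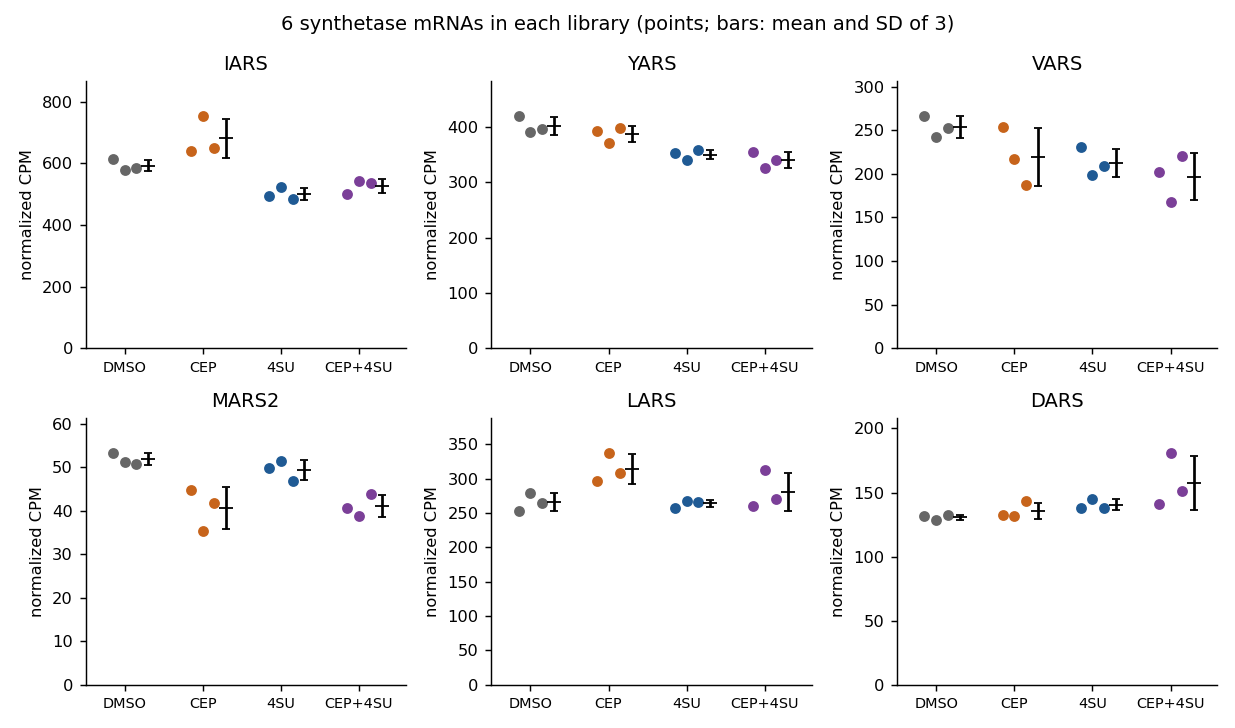
Normalized CPM (vertical axes from 0) of IARS, YARS, VARS, MARS2, LARS and DARS in each library, replicates 1 to 3 from left to right in each group, with the mean and SD of 3 beside them. The 4SU and CEP+4SU points of IARS and YARS lie below all others, and the CEP and CEP+4SU points of MARS2 lie below all others.

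With both compounds, 3 members were higher and 7 lower at an unadjusted p under 0.05, against 10.5% and 10.8% of all genes. Of these, 3 higher and 5 lower were cytosolic, and 2 lower were mitochondrial. The class medians were -0.036 and -0.025. With the 2 libraries that stand apart left out, 2 were higher and 4 lower, and the class medians were -0.010 and 0.017. YARS had a log2 fold change of -0.24 (SE 0.066, adjusted p = 0.0653). VARS had 203, 167 and 220 CPM in the 3 libraries and a value of -0.37 (SE 0.11, adjusted p = 0.0739). DARS, the aspartate enzyme, had 131, 128 and 132 CPM in DMSO and 141, 181 and 151 CPM in CEP+4SU, with replicate 2 well above the rest, and a value of 0.27 (SE 0.085, adjusted p = 0.0875).

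The 4 members that DESeq2 called here were YARS, VARS, DARS and MARS2, with adjusted p of 0.00863, 0.0193, 0.0316 and 0.0212. Without the 2 libraries that stand apart, edgeR gave DARS a value of 0.16 (adjusted p = 0.285), VARS -0.26 (adjusted p = 0.178), YARS -0.21 (adjusted p = 0.122) and MARS2 -0.29 (adjusted p = 0.109). With the GC trend removed, DARS (40.6% GC) had 0.11 and VARS (61.3% GC) -0.14, while YARS (49.9% GC) kept -0.24 (adjusted p = 0.0295) and MARS2 -0.36 (adjusted p = 0.0430). CARS2 had 40.2, 31.5 and 37.9 CPM with both compounds, below its DMSO libraries, at -0.25 (adjusted p = 0.149), and at -0.16 without the 2 libraries that stand apart. HARS2 had 45.4, 41.5 and 40.5 CPM, above its DMSO libraries, at 0.19 (adjusted p = 0.245). The remaining members under an unadjusted p of 0.05 were QARS (glutamine, -0.20), IARS (-0.17) and FARSA (-0.27), which were lower, and RARS (arginine, 0.20) and NARS (0.16), which were higher. FARSA had 227, 156 and 221 CPM with both compounds, with replicate 2 well below the rest. In the order named, and without the 2 libraries that stand apart, these 5 had values of -0.12, -0.19, -0.11, 0.14 and 0.11.

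Averaged over CEP, IARS mRNA fell with 4SU. The log2 fold change was -0.31 (SE 0.051, adjusted p = 0.0125), a level 19.3% lower, and 1 of 36 members passed where 0.558% of all genes did. DESeq2 called 2 members, IARS and YARS, against 2.62% of genes, and limma on log2(FPKM + 1) called 1, against 0.164%. IARS passed in each of the 12 other settings tried (adjusted p from 1.28e-05 to 0.0487), among them the fit without the 2 libraries that stand apart (-0.28, adjusted p = 0.00288) and the one with the GC trend removed (-0.32, adjusted p = 0.000172). It missed the threshold without DMSO replicate 1 (adjusted p = 0.0587) and without 4SU replicate 3 (adjusted p = 0.0603), and its value stayed between -0.33 and -0.26 with each of the 12 libraries left out in turn.

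YARS came next at -0.19 (SE 0.047, adjusted p = 0.0670). It passed with the GC trend removed (adjusted p = 0.00705), without the 2 libraries that stand apart (adjusted p = 0.0402) and in DESeq2 (adjusted p = 0.00565). At an unadjusted p under 0.05, 3 members were higher and 7 lower, against 5.66% and 6.95% of all genes. The 7 lower ones were all cytosolic: IARS, YARS, VARS (-0.21), WARS (tryptophan, -0.14), QARS (-0.12), TARS (threonine, -0.11) and SARS (serine, -0.097). The 3 higher ones were HARS2 (0.19), DARS (0.16) and VARS2 (0.13). The cytosolic median was -0.078 with 16 of 20 genes below 0, the mitochondrial median was 0.019 with 9 of 16 above 0, and the median of all genes was -0.0019. Without the 2 libraries that stand apart DARS had 0.098, 2 members were higher and 6 lower and the class medians were -0.053 and 0.022, and with the GC trend removed -0.073 and 0.010. Scaled by library size alone, the cytosolic median was -0.034.

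Averaged over 4SU, CEP gave 0 members at an adjusted p of 0.05 or less by edgeR, where 0.276% of all genes passed, 5 by DESeq2, where 14.6% of genes passed, and 0 by limma on log2(FPKM + 1), where 0.107% passed. The 5 were MARS2, NARS, EPRS, LARS and GARS. In edgeR, 5 members passed without CEP replicate 1 and 1 passed without CEP+4SU replicate 1, against 11.8% and 6.16% of all genes. By unadjusted p under 0.05, 7 were higher and 4 lower, against 13.5% and 10.8% of all genes. The 7 higher members were cytosolic, namely NARS (0.15), EPRS (0.16), LARS (0.17), GARS (0.14), IARS (0.14), RARS (0.14) and FARSB (0.13), and after MARS2 the lower ones were PARS2 (-0.23), VARS (-0.16) and VARS2 (-0.14). In the fit without the 2 libraries that stand apart, 3 were higher and 2 lower, and the 7 cytosolic members named had values of 0.078 to 0.11. With the GC trend removed, 1 cytosolic member was higher, and VARS2 had a value of 0.016. The complex members had a median of 0.12 (6 of 8 above 0) and the other cytosolic members 0.0016, and without the 2 libraries that stand apart these were 0.071 and 0.0089.

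The interaction of CEP with 4SU, which asks whether the effect of one compound differs in the presence of the other, gave 0 members by edgeR, where 0% of all genes passed, and 0 by DESeq2 and limma. At an unadjusted p under 0.05 there were 0 members, where 2.63% of all genes had such values in either direction. IARS had a value of -0.13 and MARS2 one of 0.084 (adjusted p of 1.00 for both), and without the 2 libraries that stand apart 2 mitochondrial members had an unadjusted p under 0.05 and 0 passed. The standard errors of the interaction, 0.090 to 0.38 over the members, were larger than those of the other comparisons.

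FARSA and FARSB encode the subunits of one enzyme that assembles from both. The ratio of their FPKM was 2.48, 2.27 and 2.53 in DMSO, 2.20, 1.73 and 1.59 in CEP, 2.47, 1.97 and 2.15 in 4SU and 2.43, 1.41 and 2.09 in CEP+4SU. All CEP libraries were below all DMSO libraries, and CEP+4SU replicate 2 was the lowest of the 12. The genes differ in GC content, at 61.6% for FARSA and 41.6% for FARSB, and with the GC trend removed their fold changes for CEP were 0.033 and 0.043. This pair was chosen after its values were seen and was not tested.

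**Figure D3:**
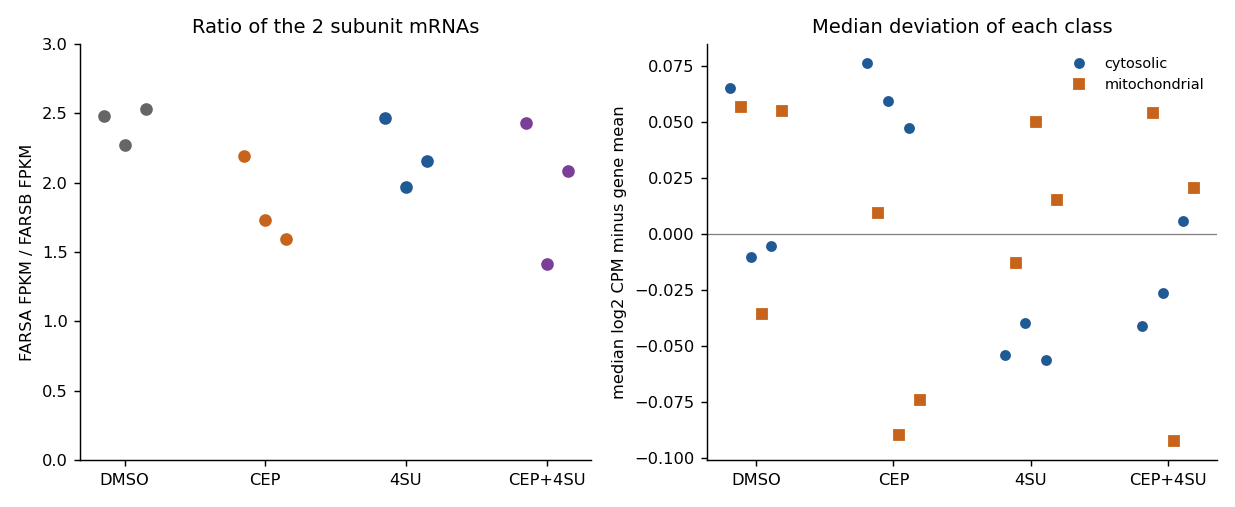
Left, the ratio of FARSA FPKM to FARSB FPKM in each library, 2.27 to 2.53 in DMSO and 1.59 to 2.20 in CEP. Right, the median over cytosolic (blue circles) and mitochondrial (orange squares) members of log2 CPM minus the gene's mean over the 12 libraries. The cytosolic median is below 0 in all 3 4SU libraries (-0.056 to -0.039) and above 0 in all 3 CEP libraries (0.048 to 0.077). In DMSO it is -0.0099 to 0.065, and DMSO replicate 1, at 0.065, lies within the CEP range.

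HARS and HARS2 are neighbours that are read away from each other on chromosome 5, and their RefSeq start bases lie 85 bases apart. For 4SU averaged over CEP the value was 0.19 for HARS2 (adjusted p = 0.232) and -0.026 for HARS, and without the 2 libraries that stand apart 0.20 and -0.0040. The difference between them was not tested.

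The 6 cytosolic members with the ATF4-type motif in their window, AARS, CARS, IARS, MARS, NARS and TARS, had a median of -0.025 for 4SU averaged over CEP, with a range of -0.31 (IARS) to 0.027 (CARS), against -0.078 for the 10 cytosolic members with a window and no match. For CEP against DMSO the medians were 0.052 and 0.081. Leaving out the 2 libraries that stand apart gave -0.0056 and -0.053 for 4SU averaged over CEP and 0.053 and 0.068 for CEP. Of the 13 cytosolic members known as ATF4 targets, 1 passed the test for 4SU averaged over CEP (IARS), and 11 of 13 were below 0 with a median of -0.086, against 5 of 7 and -0.074 for the other cytosolic members (-0.096 and -0.051 without the 2 libraries that stand apart).

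ATF4 mRNA itself stood at 266 to 364 FPKM over the 12 libraries and had a log2 fold change of 0.12 for CEP averaged over 4SU (adjusted p = 0.169) and -0.12 for 4SU averaged over CEP (adjusted p = 0.357). Of 15 integrated stress response genes tested, among them ASNS, which makes asparagine, and the stress-induced factor DDIT3, 0 passed in any of the 6 comparisons by edgeR or by limma on log2(FPKM + 1). DESeq2 called 1 for CEP+4SU against DMSO (PHGDH, of serine synthesis) and 1 for CEP averaged over 4SU (TRIB3, a feedback inhibitor of ATF4). At an unadjusted p under 0.05 in edgeR, 0 were higher and 1 lower for CEP, 0 and 1 for 4SU, 1 and 3 for CEP+4SU, 1 and 1 for CEP averaged over 4SU, 1 and 5 for 4SU averaged over CEP, and 0 and 0 for the interaction. For 4SU averaged over CEP, 5 of 15 lower stood against 6.95% of all genes, and the other shares of all genes are those given with the members. With the GC trend removed, edgeR called PPP1R15A, which restores translation after stress, for CEP+4SU against DMSO and PHGDH for 4SU averaged over CEP, and without the 2 libraries that stand apart it called 0 in each comparison. The median for 4SU averaged over CEP was -0.066.

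Of 23 other genes of the charging pathway, 22 were tested, and EEF1G was listed at 0 in every library. They cover the scaffold proteins of the complex, mitochondrial glutamine amidation and initiator formylation, removal of mischarged products, selenocysteine, and tRNA end repair, export and delivery. EEF1A2, an isoform of the elongation factor that carries charged tRNA to the ribosome, was the 1 gene that passed in edgeR as first fitted. Its log2 fold change was -0.54 (SE 0.087, adjusted p = 0.00852) for CEP+4SU against DMSO and -0.32 (SE 0.062, adjusted p = 0.0232) for 4SU averaged over CEP. Leaving out the 2 libraries that stand apart gave -0.43 (adjusted p = 0.00405) and -0.28 (adjusted p = 0.00635), and with the GC trend removed the values were -0.23 (adjusted p = 0.0655), which missed the threshold, and -0.27 (adjusted p = 0.00108). For CEP against DMSO 2 of the 22 were higher and 3 lower at an unadjusted p under 0.05, against 9.79% and 8.77% of all genes. For 4SU averaged over CEP 1 was higher and 4 lower, against 5.66% and 6.95% of all genes. AIMP1, a scaffold of the multi-synthetase complex, had a value of 0.24 for CEP (SE 0.091, adjusted p = 0.197), and XPOT, which exports tRNA from the nucleus, had 0.22 (SE 0.076, adjusted p = 0.187). DESeq2 also called EEF1D for CEP, TUFM for CEP+4SU, and EEF1D, EEFSEC and XPOT beside EEF1A2 for CEP averaged over 4SU, and edgeR with the GC trend removed called EEF1A1 for 4SU averaged over CEP.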

How the data were processed

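RNA-Seq libraries (12, in 4 groups by the treatment on the labels) were analysed from deposited tables. The authors discarded low-quality, poly-N and adapter reads, aligned the rest with HISAT2 2.0.5 and counted with featureCounts 1.5.0-p3 (versions from the submitters' processing notes), and deposited whole counts per gene on GRCh38 and FPKM made from them. Gene names matched GENCODE 29.

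Counts were filtered with filterByExpr (minimum count 10, total 15), scaled by TMM and fitted over all 12 libraries with edgeR 4.0.16 (quasi-likelihood, R 4.3.3), without the replicate number, with p-values adjusted by Benjamini-Hochberg and called at 0.05. CPM uses TMM library sizes, and averaged comparisons weigh both levels of the other compound equally. GC content is that of all GENCODE transcripts of a gene. The fit was tested on simulated data. Alternatives were DESeq2 1.42.0, limma 3.58.1 on log2 of the deposited FPKM with pseudocounts of 1 and 0.1, other scalings and filters, robust dispersion, a replicate block, fits of a comparison's groups alone, GC and length trends removed, an adjusted p of 0.5, and libraries left out.

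Members, lists and tests were chosen with earlier results of these data known. Values in every library are given for members that passed, the 3 of each class with the smallest p against DMSO, and the 2 most and least abundant of each class.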

Additional observations from a re-analysis of the deposited data

How the results depend on the processing

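The number of members called changed with the tool and the fit more than the fold changes did. DESeq2 called 1 member for CEP, 4 for CEP+4SU, 5 for CEP averaged over 4SU and 2 for 4SU averaged over CEP (1.83%, 9.96%, 14.6% and 2.62% of genes). Without a filter on low counts these were 1, 3, 1 and 1 (1.86%, 3.46%, 4.06% and 0.873%), and with the study's printed threshold of 0.5 they were 18, 15, 22 and 12 (44.4%, 47%, 52.3% and 20.5%). Fits of the compared groups alone gave 1 for 4SU and 2 for CEP+4SU (0.557% and 3.36%). For CEP averaged over 4SU, 1 member passed under upper-quartile scaling, library size alone, at least 10 counts in every library and robust dispersion (0.282% to 0.824% of genes). Removing GC trends gave 3 for CEP+4SU, 1 for CEP averaged over 4SU and 3 for 4SU averaged over CEP (1.19%, 0.361% and 3.78%), and turned VARS2 for CEP averaged over 4SU to 0.016. Removing length trends gave 1 for CEP+4SU (1.96%). Without the 2 libraries that stand apart, 2 passed for 4SU averaged over CEP (1.23%).

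With the replicate block, 2 members were called for CEP, 5 for CEP+4SU, 5 for CEP averaged over 4SU and 2 for 4SU averaged over CEP, where 780, 1667, 2269 and 336 of all genes were called (4.4%, 9.4%, 12.8% and 1.9%). Same-numbered libraries correlated between -0.047 and 0.14 in their deviations from group means, with 1 of 18 pairs above 0.1. Of the 12 libraries, 8 correlated best with their own number. Among treated libraries, same-numbered pairs of replicates 1 and 2 had 0.044 to 0.14, and those of replicate 3 had -0.047 to 0.011. The main fit left the number out because the study does not use it, and whether the libraries are paired was not tested. The counts called depend on that choice. Replicate 2 had the fewest genes detected and the lowest GC trend of its group in each of the 3 treated groups, and whether a number marks a shared day was not tested.

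The cytosolic median for 4SU was -0.0021 under upper-quartile scaling and 0.026 under library size alone, where the mitochondrial median was 0.042. That for CEP+4SU was -0.0041 under library size alone and -0.010 without the 2 libraries that stand apart. That for 4SU averaged over CEP was -0.034 under library size alone, and that for CEP averaged over 4SU was 0.019 with GC trends removed. The mitochondrial median of the interaction was then 0.016.

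With each library left out in turn, 0 to 2 members were called for CEP, where 0.0219% to 6.61% of all genes were called. For CEP+4SU 0 to 2 were called, against 0.0766% to 4.42% of all genes. CEP averaged over 4SU gave 0 to 5, against 0.115% to 11.8%, and 4SU averaged over CEP gave 0 to 1, against 0.0328% to 0.687%. The cytosolic median was -0.075 to -0.0098 for CEP+4SU and -0.084 to -0.051 for 4SU averaged over CEP, and the mitochondrial median of the interaction was 0.013 to 0.096. The causes of these changes were not tested.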
